A study of Homo sapiens with 31 samples.

Results

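The sites described here are gene promoters at which EVI1 and CTBP2 were called together and at which CTBP2 was still called after induction of a CTBP2-binding inhibitor. They were selected on the ChIP-seq peak lists themselves: a merged CTBP2 interval had to be called in both untreated libraries, to overlap a CTBP2 peak in both dox libraries and an EVI1 peak in both untreated EVI1 libraries, and to have its untreated replicate 1 summit no more than 1 kb from a protein-coding transcription start site (TSS) in GENCODE (hg19). Intervals with a peak in all 13 lists were dropped. Of the 37227 untreated CTBP2 sites, 14297 were called in both dox libraries, 13576 of these had EVI1 in both untreated lists, and 3957 of those lay at promoters. Dropping the 688 sites of all 13 lists left 3269 resistant EVI1-CTBP2 promoter sites. They were compared with 7258 resistant EVI1-CTBP2 sites away from promoters, chosen by the same rule apart from the distance, and with 2370 EVI1-CTBP2 promoter sites at which neither dox library had a CTBP2 peak.

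EVI1 is a zinc finger transcription factor encoded at MECOM and drives an aggressive form of acute myeloid leukaemia when overexpressed. CTBP2 is a corepressor without DNA binding of its own. It is brought to DNA by factors that carry a short PxDLS-type motif, which EVI1 has (PLDLS), and it bridges them to histone-modifying enzymes. The 4xPLDLS inhibitor is a peptide with repeats of this motif that competes with EVI1 for CTBP2.

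The selection rests on MUTZ3 cells, a human acute myelomonocytic leukemia line with high EVI1, transduced as a bulk population with dox-inducible pCW-4xPLDLS. These cells carried the construct in all 4 groups: CTBP2 and EVI1, each untreated and with dox, at 72 h and with 2 libraries per group. All 8 libraries were double-crosslinked with DSG and formaldehyde, and the libraries of a treatment shared 1 input. The other 5 lists came from unmodified (WT) untreated MUTZ3 cells (EVI1 with DSG, CTBP2 with a single crosslink, 1 library each), from untreated MOLM1 cells carrying a dox-inducible shRNA against EVI1 (CTBP2, 1 library), and from MUTZ3 cells with p50MX-3xFLAG-3xNLS-4xPLASS-Zeo, a retroviral control peptide with the motif mutated (CTBP2, 2 libraries). MOLM1 is a line labelled as chronic myeloid leukemia in blast crisis. For the MOLM1 and 4xPLASS libraries the labels and the methods of the study give DSG, while its list of ChIP samples gives a single crosslink. Nothing states that replicates were separate cultures, so the spread between them may be technical.

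The inducible lists held between 47599 and 72214 peaks for EVI1, 62232 and 56526 for CTBP2 untreated, and 24588 and 23878 for CTBP2 with dox. Read counts are not part of these lists, so depth is unknown and a shorter list may be a shallower one. All values below are the fold enrichment of a peak over its local background, as given by the peak caller, or the percentile of a peak by fold enrichment within its own list. Where several peaks of a library fell in a site, the strongest was read.

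The DNA under the strongest of these sites is shown first, since 3 of these 5 windows held none of the motifs searched for. Each sequence is the 61 bp around the CTBP2 summit of untreated replicate 1, read from the plus strand of hg19 (GRCh37). Capitals mark matches to any of 12 transcription factor cores on either strand. The 10 strongest sites by mean CTBP2 percentile over the 4 inducible libraries included EPS8L2, SMNDC1, HEATR6, TLX1, GSTA4, ZNF395, PARP2, STARD3NL and GNGT2. The 5 shown had no annotated exon in the window. ZNF395, which also had none, is left out.
EPS8L2, chr11:694346-694406: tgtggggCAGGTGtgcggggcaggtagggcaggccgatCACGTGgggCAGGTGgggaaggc
SMNDC1, chr10:112064801-112064861: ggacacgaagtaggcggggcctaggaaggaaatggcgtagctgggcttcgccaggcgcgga
HEATR6, chr17:58156353-58156413: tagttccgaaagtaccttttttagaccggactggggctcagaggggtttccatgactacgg
TLX1, chr10:102890948-102891008: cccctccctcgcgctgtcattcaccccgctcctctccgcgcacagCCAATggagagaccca
STARD3NL, chr7:38217580-38217640: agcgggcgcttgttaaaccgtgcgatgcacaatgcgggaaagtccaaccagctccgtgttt
The EPS8L2 summit held the E-box CACCTG on the minus strand on either side of CACGTG. TLX1 held a CCAAT box, and SMNDC1, HEATR6 and STARD3NL held none of the 12 cores. All 5 summits lay upstream, at -62 bp from the TSS of EPS8L2, -135 bp of SMNDC1, -100 bp of HEATR6, -79 bp of TLX1 and -237 bp of STARD3NL. EPS8L2 lay in an intron of an annotated gene and the other 4 outside protein-coding genes.

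A second set shows the strongest sites with an ETS core (CCGGAAG, the letters bound by ETS factors) within 30 bp of the summit and no annotated exon. These 4, and the sites that follow them, were chosen after their values were seen.
RIOK3, chr18:21033139-21033199: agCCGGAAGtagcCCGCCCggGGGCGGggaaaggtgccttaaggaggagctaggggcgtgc
KLHL20, chr1:173683973-173684033: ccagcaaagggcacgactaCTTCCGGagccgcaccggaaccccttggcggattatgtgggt
PLGRKT, chr9:5437938-5437998: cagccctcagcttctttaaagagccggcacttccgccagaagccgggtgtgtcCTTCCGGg
AXIN1, chr16:402889-402949: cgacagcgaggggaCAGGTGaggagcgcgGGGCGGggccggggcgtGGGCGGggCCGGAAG
At PLGRKT, a plasminogen receptor gene, the CTBP2 fold enrichment was 17.1 and 8.67 untreated and 14.3 and 10.5 with dox, so the treatments overlapped and the ratio of dox to untreated was 0.961. At AXIN1, a scaffold of the complex that degrades beta-catenin, it was 34.6 and 18.1 untreated and 7.27 and 6.79 with dox. The same core therefore stood under a site with overlapping treatments and under one whose dox values were both below the untreated ones.

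The last set holds the strongest sites with the GATA-like core AGATAA, which the first zinc finger domain of EVI1 recognises, and the summit at the promoter of CTBP2 itself.
BTRC, chr10:103113622-103113682: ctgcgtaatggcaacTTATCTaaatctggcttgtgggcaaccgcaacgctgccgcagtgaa
MAPKBP1, chr15:42066834-42066894: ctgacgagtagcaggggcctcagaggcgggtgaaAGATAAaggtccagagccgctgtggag
CTBP2, chr10:126850048-126850108: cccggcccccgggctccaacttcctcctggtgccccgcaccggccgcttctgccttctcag
At BTRC, an F-box subunit of a ubiquitin ligase, EVI1 fold enrichment was 19.5 and 27.2 untreated and 13.3 and 12.9 with dox. The CTBP2 window held none of the cores and 5 CpG dinucleotides in 61 bp.

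CTBP2 was weaker with dox at most of these promoters, although it stayed called. The median CTBP2 fold enrichment over the 3269 sites was 12.2 and 7.75 in the untreated libraries and 4.87 and 4.88 with dox. The untreated libraries differed from each other by more than the dox libraries did, and both dox medians were below both untreated ones. On the log2 scale the library medians averaged 3.28 ± 0.46 untreated and 2.29 ± 0.0023 with dox (SD, n = 2), a difference of -0.99. In their own lists the sites had median percentiles of 86.1 and 74.4 untreated and 50.8 and 38.5 with dox. The rule asked for CTBP2 in all 4 libraries, so these values describe the selection and were not tested.

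At single sites, the CTBP2 fold enrichment with dox was a median of 0.496 times the untreated value (mean of 2 libraries over mean of 2), and it ran from 0.166 to 1.77. Both dox values lay below both untreated values at 2592 sites (79.3%) and above both at 18 sites (0.551%). Among all 14297 untreated sites called in the 4 CTBP2 libraries, which include these, the shares were 72.5% below and 1.96% above. Nothing is read from these counts, since the rule used the same contrast.

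The strongest site was at EPS8L2, which encodes a relative of the actin regulator EPS8. Its CTBP2 fold enrichment was 55.5 and 35.5 untreated and 18.6 and 23.8 with dox. SMNDC1, which encodes a splicing factor, had the highest ratio of dox to untreated among the 10 strongest sites, 0.764, with 27.6 and 22.02 untreated against 16.8 and 21.2. PARP2, a poly(ADP-ribose) polymerase of DNA repair, went from 33.6 and 25.9 to 11.7 and 10.8. None of these 3 sites had overlapping groups.

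The lowest ratios of dox to untreated CTBP2 were found at MSL2, MTM1 and ZNF397. At MSL2, a subunit of a histone acetyltransferase complex, CTBP2 fold enrichment was 21.2 and 18.6 untreated and 3.19 and 3.41 with dox. MTM1, a phosphoinositide phosphatase, had 21.7 and 18.9 against 3.59 and 3.25. At both sites the dox values lay below both untreated ones. The highest ratios, at FAM83A, CCNA2 and CDC5L, came from sites that were weak before dox. At CCNA2, which encodes cyclin A, the values were 7.65 and 2.72 untreated and 5.51 and 9.54 with dox, and at CDC5L, a splicing and cell cycle factor, they were 7.97 and 4.23 against 8.02 and 9.35.

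EVI1 was still called at nearly all of these promoters with dox. Dox replicate 1 had an EVI1 peak at 3266 of the 3269 sites (99.9%) and dox replicate 2 at 3254 (99.5%). Resistant sites away from promoters had nearly the same shares, 98.5% and 97.7%, and promoters that lost CTBP2 had 94.7% and 86.7%. The series held 8482 untreated EVI1-CTBP2 sites at promoters and 22161 elsewhere. Of these together, 26771 had EVI1 in both dox libraries as well, as did 3252 of the 3269 resistant promoters. At the resistant promoters the median EVI1 fold enrichment was 8.40 and 12.5 untreated and 9.44 and 7.70 with dox. The library with the highest median was untreated and the one with the lowest was treated, but the second highest was treated too, so the groups overlapped. On the log2 scale the medians averaged 3.36 ± 0.40 untreated and 3.09 ± 0.21 with dox (SD, n = 2). The difference of -0.26 was smaller than the SD of the untreated libraries. The list percentiles, 72.4 and 85.1 untreated and 78.3 and 70.9 with dox, differed by -4.12 points. The rule asked for an EVI1 peak in both untreated libraries and not in the dox ones, so the untreated values were in part selected and these differences are given with no test.

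Of the 3252 sites with EVI1 in all 4 libraries, 1094 (33.6%) had both dox values below both untreated ones and 341 (10.5%) had both above. Over the 26771 untreated CTBP2 sites with EVI1 in all 4 libraries the shares were 37.5% and 11.7%. The shares at the resistant promoters were near this background. The ratio of EVI1 fold enrichment with dox to untreated had a median of 0.829 and ran from 0.232 to 3.22. The lowest ratios were at SPATA5L1, GOT2 and BAALC and the highest at ARID2, ZKSCAN3 and MAP10. At GOT2, the mitochondrial aspartate aminotransferase, EVI1 was 17.7 and 43.5 untreated and 10.4 and 6.20 with dox. At ARID2, a subunit of a SWI/SNF chromatin remodeling complex, EVI1 was 4.49 and 8.12 untreated and 21.5 and 19.2 with dox, while CTBP2 was 5.16 and 3.63 untreated and 6.91 and 4.48 with dox. EVI1 was therefore higher with dox in both libraries at ARID2, and the CTBP2 values overlapped.

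By mean EVI1 in the untreated libraries, the strongest of these sites were ATOSB, CCM2 and ZNF726. CCM2, a scaffold of endothelial junction signalling, had EVI1 at 55.7 and 92.2 untreated and 59.7 and 50.9 with dox, and CTBP2 at 31.9 and 19.8 untreated and 8.66 and 4.79 with dox. At ATOSB the 2 dox libraries disagreed, with EVI1 at 66.7 in replicate 1 and 8.60 in replicate 2 against 56.5 and 96.7 untreated. TLX1, a homeobox gene activated in T-cell leukaemia, had the highest EVI1 of these sites in each dox library, with 46.6 and 55.0 untreated and 73.3 and 56.7 with dox, both dox values lying above both untreated ones.

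The resistant promoter sites were compared with the resistant sites away from promoters to see whether EVI1 moved differently. The EVI1 log2 change was -0.26 at promoters and -0.17 away from them, and these changes differed by -0.091. Against promoter sites that lost CTBP2, where the EVI1 change was -0.36, the difference was 0.099, and it was 0.23 with lists of equal size. All 3 classes were chosen on untreated EVI1 calls and on CTBP2 calls with dox, so these differences were not tested. At those lost sites EVI1 was called with dox at 94.7% and 86.7% of sites, and their EVI1 medians cover only the sites called, so their dox values leave out the weakest.

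In level, the order of the 2 kinds of resistant site changed with the library. CTBP2 at promoters exceeded CTBP2 away from promoters in untreated replicate 1 by 0.18 on the log2 scale of the medians. It was below it in untreated replicate 2 by a difference of -0.24, and in the dox libraries by -0.11 and -0.22. For EVI1 the difference was -0.21 and 0.052 in the untreated libraries and -0.10 and -0.24 with dox, so it was above 0 in untreated replicate 2 alone. Promoter sites that lost CTBP2 were weaker before dox, with CTBP2 medians of 7.75 and 4.84 and EVI1 medians of 5.78 and 8.02.

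Retention of CTBP2 followed its strength before dox at promoters as elsewhere. When the untreated sites were divided into 5 equal groups by CTBP2 fold enrichment in untreated replicate 1, 79.4% of the 2447 EVI1-CTBP2 promoter sites in the strongest group were called in both dox libraries, then 47.7%, 30.1%, 20.8% and 11.2%. Away from promoters the shares were 82.8%, 49.0%, 32.1%, 23.6% and 20.2%. A weak site is also the more easily missed in a shorter list. The part of this in the shares was not tested.

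The resistant promoter sites were also found in cells without induced inhibitor, to an extent that differed between experiments. MOLM1, with 64569 peaks, had the longest of the other lists. Its CTBP2 peaks were present at 2781 sites (85.1%, 95% Wilson interval 83.8 to 86.3). They were present at 72.9% (71.9 to 73.9) of the resistant sites away from promoters and at 61.4% (59.4 to 63.3) of the promoters that lost CTBP2. Within each of the 5 strength groups, the MOLM1 share was 82.2% to 86.3% at promoters and 68.3% to 74.7% away from them. The promoter share was the higher in each of the 5 groups. The Wilson intervals cover counting error only, over sites of 1 library. Shares over all untreated CTBP2 sites are not given for MOLM1 or the other lists below. The shares therefore stand beside selected classes only. The resistant promoter sites were also wider, with a median of 1254 bp against 810 bp away from promoters and 954.5 bp at lost promoters. A call needed only 1 bp of overlap with a site. The part of site width in these shares was not tested.

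In unmodified MUTZ3 cells an EVI1 peak was called at 59.1% of the sites and a CTBP2 peak at 44.1%. With 4xPLASS, CTBP2 was called at 9.09% in replicate 1 and at 78.4% in replicate 2. Replicate 1 held 6688 peaks and replicate 2 held 31310, and the range between them exceeds most differences between experiments. At promoters that lost CTBP2 the shares were 23.6% for EVI1 and 11.6% for CTBP2 in unmodified cells, and 2.45% and 32.6% with 4xPLASS. The shares at lost sites were lower in each of the 5 lists, and these sites were the weaker ones before dox. At resistant sites away from promoters the shares were 59.9% and 50.0% in unmodified cells and 10.5% and 77.1% with 4xPLASS.

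The rule lowers these shares at resistant sites, because sites in all 13 lists were dropped. With the 688 dropped promoter sites returned, the shares were 66.2% for EVI1 and 53.8% for CTBP2 in unmodified cells, 87.7% in MOLM1, and 24.9% and 82.1% with 4xPLASS. The corresponding shares away from promoters were 69.7%, 62.3%, 79.6%, 32.5% and 82.8%. Of the 5 lists, MOLM1 alone had a higher share at promoters both with the dropped sites and without them. Of the 3269 sites, 1014 (31.0%) had a peak in 12 of the 13 lists, and at 799 of these the list without a peak was 4xPLASS replicate 1. Membership therefore depends in part on the shortest list.

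The sites lay close to the TSS. The CTBP2 summit was a median of 152 bp from the nearest TSS, within 200 bp at 59.8% of sites, and upstream of it at 46.5%. It fell in an annotated exon at 51.0% of sites, in an intron of a protein-coding gene at 16.9% and outside protein-coding genes at 32.2%. Promoter sites that lost CTBP2 had nearly the same placement, with a median of 168 bp and 43.4% upstream. At 433 resistant promoters (13.2%, 12.1 to 14.5) TSSs on both strands lay within 1 kb of the summit, against 12.1% (10.9 to 13.5) of the lost ones. The gene name given to such a site is only the nearest of several.

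The merged intervals were broad, with a median of 1254 bp against 954.5 bp (the lost promoters) and 810 bp (the resistant sites elsewhere). EVI1 and CTBP2 summits lay near each other, a median of 66 bp and 56 bp apart in the untreated EVI1 libraries and 65 bp and 67 bp in the dox ones. The untreated spacing was 89 bp and 78 bp at lost promoters, and smaller, 44 bp and 39 bp, at resistant sites away from promoters. At the resistant promoters the CTBP2 summits of the 2 untreated replicates lay a median of 51 bp apart. Just inside the distance limit were WT1, with its summit 995 bp downstream of the TSS, and GPD2 at 992 bp. Just outside were MED22 and NT5M, both at 1001 bp. CTBP2 at WT1, a zinc finger factor of leukaemia, was 18.1 and 12.7 untreated and 4.73 and 5.75 with dox, and at GPD2 it was 19.7 and 10.2 against 4.49 and 4.27. At MED22 it was 8.70 and 5.96 untreated and 4.01 and 4.81 with dox, and at NT5M 8.38 and 10.1 against 4.15 and 4.43.

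Base composition and motifs were read in the 201 bp around each CTBP2 summit, and a match is a run of letters on either strand, not a bound site. Resistant promoters had a median GC content of 65.7% and 17 CpG, lost promoters 66.7% and 18 CpG, and resistant sites elsewhere (7149 of them, on the main chromosomes) 56.2% and 4 CpG. The ETS core CCGGAAG was present at 626 resistant promoters (19.2%, 17.8 to 20.5), at 18.6% (15.9 to 21.7) of the promoters of all 13 lists, at 12.7% (11.4 to 14.1) of the lost promoters and at 10.1% of all 20163 protein-coding TSSs. The windows of all TSSs lie at the starts of all genes and not at CTBP2 summits, here and for the cores below. At resistant sites away from promoters the ETS core was present at 6.53%. In windows 400 bp upstream of the resistant promoter summits, with a median GC content of 52.2%, it was present at 3.12%. Windows of 101 bp and 501 bp gave 11.1% and 29.4% at resistant promoters against 7.59% and 20.5% at lost ones. In the strongest CTBP2 group the shares were 21.7% (19.6 to 23.9) and 15.7% (10.8 to 22.3). In the groups that followed they were 19.9% and 15.4%, 14.7% and 11.5%, and 14.3% and 11.7%. In the weakest they were 7.69% (5 of 65 sites, 3.33 to 16.8) and 11.2% (8.37 to 14.8). The intervals overlapped in each group. The share was lower in each weaker group of resistant promoters, and strength differs between the classes.

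The cores known for EVI1 itself were scarce at resistant and lost promoters alike. AGATAA was present at 102 resistant promoters (3.12%), against 2.36% of lost promoters, 7.71% of resistant sites elsewhere and 4.57% of all TSSs. AGATGAG, bound by the second zinc finger domain, was present at 2.11%, against 2.28%, 5.04% and 2.14%. Promoters of all 13 lists had 5.38% for each core. In the windows 400 bp upstream, with a median GC content of 52.2%, the shares were 7.46% and 3.46%. The part of base composition in these shares was not tested. The 102 sites with AGATAA had higher median EVI1 fold enrichment in each inducible library, at 11.5 and 16.5 untreated and 10.9 and 8.56 with dox, against 8.32 and 12.4, and 9.36 and 7.68, at sites without it. The RUNX core TGTGGT was present at 7.68%, against 21.9% away from promoters and 8.05% of all TSSs. The GC box GGGCGG of SP and KLF factors, at 55.4%, and the E-box CACCTG of ZEB factors, at 21.4%, were near their shares at lost promoters (55.3% and 19.5%). Their shares of all TSSs were 46.7% and 15.2%. The CCAAT box of NFY was present at 16.3%, near its share at lost promoters (17.1%) and at promoters of all 13 lists (16.3%). At all TSSs it was 25.9%, but those windows lie at the TSSs of all genes and not at CTBP2 summits. The other 5 cores were CACGTG of MYC, GCGCATGC of NRF1, TGACGTCA of CREB, TGANTCA of AP-1 and AAGATGGCG of YY1, present at 1.53% to 5.72% of resistant promoters and at 1.86% to 5.86% of all TSSs. Cores were counted one by one, whether or not they overlapped another core.

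The sites belonged to 3259 protein-coding genes, which is 16.2% of the 20175 annotated and 37.8% of the 8631 with any untreated CTBP2 promoter site. By chromosome, there were from 8.40 sites (X) to 19.9 (13) per 100 protein-coding genes. Genes are described below in 18 lists. For each list the denominator is its genes with an untreated EVI1-CTBP2 promoter site. Kept means a site called in both dox libraries, with those of all 13 lists included, and lost means no dox peak. Over all 8290 such gene symbols, 39.3% had a resistant site of the rule, 47.5% were kept and 28.1% had a lost site. These shares come from the selection, so the lists were described and not tested, and genes with several sites count under each.

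Blood growth factor receptors and signalling genes were the list with the highest kept share, 17 of 20 genes (85.0%, 63.96 to 94.8), and none of the 20 had a lost site (upper Wilson bound 16.1%). The resistant promoters included CBL, CSF1R, CSF2RA, CSF2RB, IL3RA, KIT, LYN, SOCS1, SOCS3 and SPRY2, and those in all 13 lists were CISH, DUSP6, IL6R, IL6ST, JAK2 and SYK. At KIT (chr4:55523369-55525838), the stem cell factor receptor, the summit lay in an exon 806 bp downstream of the TSS. CTBP2 there was 16.7 and 6.12 untreated and 4.19 and 4.23 with dox, and EVI1 was 5.04 and 14.0 against 6.37 and 7.599. CTBP2 was lower with dox in both libraries and EVI1 overlapped between treatments.

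At CSF1R (chr5:149492202-149493321), the receptor of macrophage colony-stimulating factor, CTBP2 was 16.3 and 12.7 untreated and 4.05 and 5.43 with dox, and EVI1 was 12.5 and 27.8 against 9.18 and 10.6. EVI1 was thus lower with dox in both libraries at CSF1R. CSF2RB, the common beta chain of the receptors for GM-CSF and interleukin 3, had CTBP2 at 10.6 and 8.06 untreated and 6.17 and 7.93 with dox, a smaller step. SOCS3, a feedback inhibitor of cytokine signalling, had 16.3 and 5.36 untreated and 4.16 and 3.06 with dox. CSF2RA and IL3RA lie in the region shared by the X and Y chromosomes, where reads align to both copies, and their values are not given. Their calls count among the 17 kept genes, and without these 2 genes 15 of 18 (83.3%) were kept, a count added after seeing the data.

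Among genes for EVI1 and CTBP partners, 11 of 22 were kept (50.0%) and 8 had a lost site (36.4%). The resistant promoters included ZEB1, CTBP2, EP300, IKZF1, NRIP1, RCOR1, GATAD2B and RCOR3. At CTBP2 (chr10:126847197-126850668) the CTBP2 fold enrichment was 20.2 and 7.27 untreated and 7.25 and 6.91 with dox, so the weaker untreated library stood level with the dox libraries. EVI1 there was 12.5 and 21.0 untreated and 23.1 and 16.5 with dox. ZEB1, a zinc finger repressor that itself binds CTBP through PLDLS-type motifs, had CTBP2 at 24.9 and 15.1 untreated and 5.02 and 4.23 with dox, and EVI1 at 15.3 and 22.5 against 15.9 and 13.5. IKZF1, the Ikaros gene, went from 19.3 and 15.2 to 3.75 and 3.89 in CTBP2. The acetyltransferase gene EP300 had CTBP2 at 19.4 and 11.5 untreated and 5.57 and 4.45 with dox.

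RCOR1 encodes CoREST, a corepressor scaffold found with CTBP. Its CTBP2 values were 13.9 and 9.39 untreated and 5.01 and 5.27 with dox, and its EVI1 values 8.30 and 17.8 against 20.1 and 17.2. At its paralog RCOR3 CTBP2 was 5.47 and 2.28 untreated and 5.14 and 4.64 with dox, so the groups overlapped, and EVI1 was 3.44 and 4.95 untreated against 8.02 and 7.48 with dox, both dox values above both untreated ones. At the other 8 promoters of this list both dox CTBP2 values lay below both untreated ones. The share was 79.3% over all 3269 resistant promoters and 72.5% over all 14297 untreated sites called in the 4 CTBP2 libraries, so nothing is read from this count. RCOR3 also had a lost site. MECOM, the gene of EVI1, was among those with a lost site, as were CHD4, CREBBP, HIC2, MTA1, SUV39H1 and WIZ. Each gene was read at its annotated gene start alone. The paper describes a longer MDS1-EVI1 form made from the MECOM locus, so this start need not be the one used for EVI1.

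Of the blood transcription factor genes, 20 of 38 were kept (52.6%) and 8 had a lost site (21.1%). The 14 resistant promoters were CBFB, ERG, ETV6, IKZF2, JUN, LDB1, LYL1, MAFG, MEF2D, NFE2, SPI1, STAT3, STAT5B and ZBTB16. Both dox CTBP2 values lay below both untreated ones at 11 of these. The share was 79.3% over all 3269 resistant promoters and 72.5% over all 14297 untreated sites called in the 4 CTBP2 libraries. Nothing is read from this count, since the rule used the same contrast. At ERG (chr21:40032174-40033776), an ETS factor of stem cells, CTBP2 was 14.6 and 7.66 untreated and 5.27 and 2.84 with dox, and EVI1 was 8.80 and 14.3 against 10.9 and 11.95. ETV6, an ETS repressor, had 14.6 and 8.33 against 6.998 and 6.50. SPI1, the gene of the myeloid ETS factor PU.1, was a weak site with 8.16 and 4.72 untreated and 3.11 and 4.28 with dox, its summit 17 bp upstream of the TSS. NFE2, a factor of erythroid and megakaryocytic cells, overlapped, with 8.16 and 3.45 against 6.31 and 4.46. CEBPA, CEBPE and FLI1 were among the genes with a lost site.

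**Figure D1:**
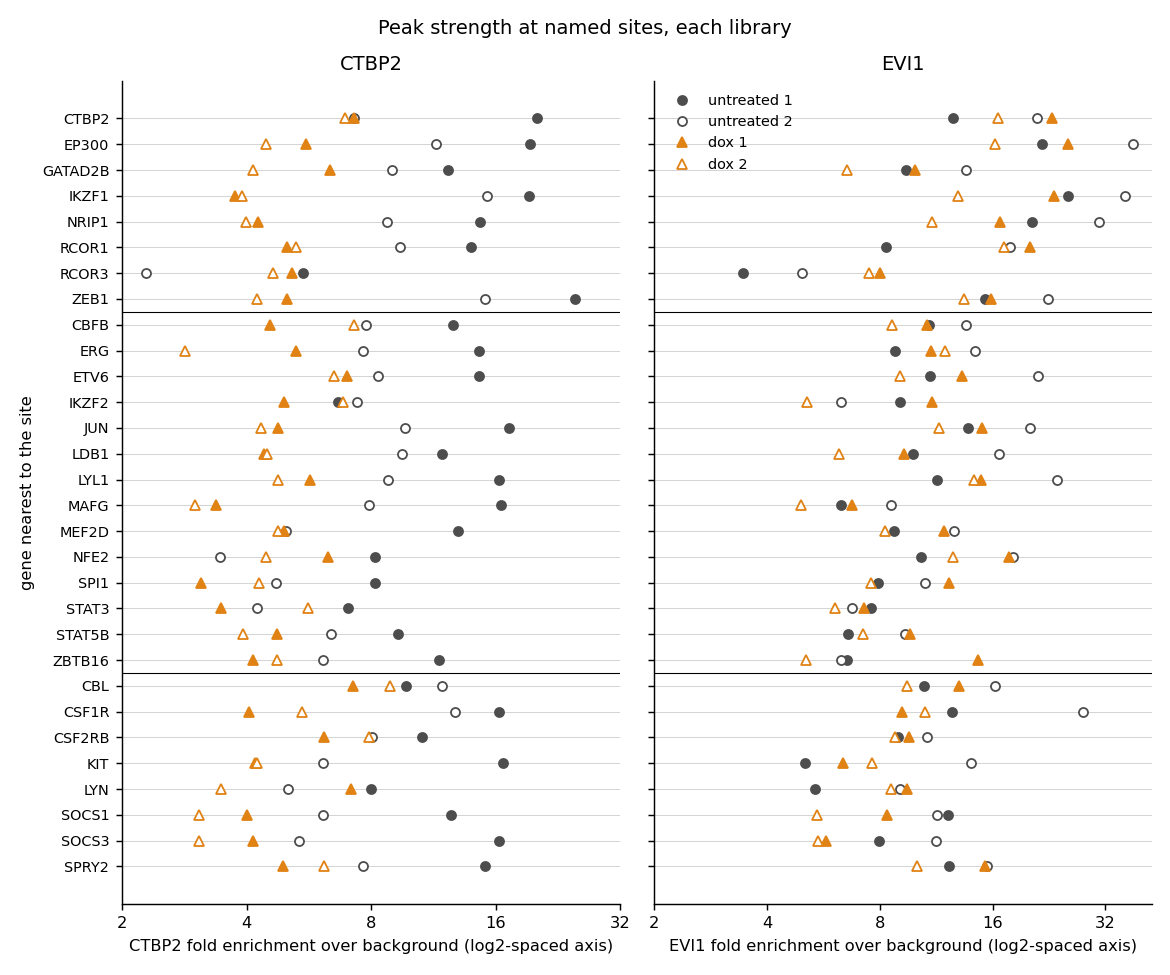
CTBP2 (left) and EVI1 (right) fold enrichment (horizontal axes, log2-spaced) in each inducible library at named resistant promoters of EVI1 and CTBP partners (top), blood transcription factors (middle) and blood growth factor receptors and signalling genes (bottom), with 1 gene per row. Circles are untreated and triangles dox libraries, filled for replicate 1 and open for replicate 2. CTBP2 triangles lie left of the circles at most genes, as at ZEB1 with 5.02 and 4.23 against 24.9 and 15.1, while the EVI1 symbols of the treatments mix at most genes.

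Lists of broadly expressed genes had lower kept shares than the receptors. Proteasome subunits were kept at 6 of 25 genes (24.0%, 11.5 to 43.4), spliceosome proteins at 10 of 34 (29.4%) and cytosolic ribosomal proteins at 15 of 47 (31.9%). Mitochondrial ribosomal proteins were kept at 22 of 58 (37.9%), complex I of the respiratory chain at 6 of 19 (31.6%) and autophagy and lysosome genes at 6 of 22 (27.3%). Other such lists were near the 47.5% of all genes. Translation factors were kept at 16 of 32 (50.0%), Mediator and RNA polymerase II at 14 of 28 (50.0%) and chaperones at 19 of 41 (46.3%). Aminoacyl-tRNA synthetases, which load transfer RNAs with amino acids, were kept at 9 of 13 (69.2%, 42.4 to 87.3), and 4 of these were in all 13 lists (RARS1, TARS1 and YARS1 among them). The remaining lists lay between, from histone genes with 14 of 39 (35.9%) to neutrophil and monocyte genes with 7 of 11 (63.6%). Of the 278 zinc finger genes named ZNF, 113 (40.6%) were kept. The part of CTBP2 strength before dox in the shares of the lists was not tested.

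In several of the other lists, the promoter with the highest CTBP2 in untreated replicate 1 was as strong as the named regulators. The promoters below were chosen by that value. MRPL38, a protein of the mitochondrial ribosome, had CTBP2 at 35.0 and 23.9 untreated and 12.3 and 9.27 with dox. RPL26, of the cytosolic ribosome, had 22.6 and 19.6 against 7.56 and 6.24. MED14, a core subunit of Mediator, kept more of its CTBP2, with 21.2 and 12.1 against 15.1 and 11.8, and had EVI1 at 23.2 and 22.4 untreated and 53.7 and 39.5 with dox. The EVI1 ratio of dox to untreated at MED14 was 2.05, and its CTBP2 groups overlapped. CDKN2A, which encodes the cell cycle inhibitors p16 and ARF, had CTBP2 at 20.3 and 5.98 untreated and 4.32 and 4.33 with dox. Its summit lay at -37 bp from the annotated gene start, and the starts of p16 and ARF were not told apart. STAT2, of interferon signalling, went from 22.2 and 13.7 to 4.44 and 4.36. At MRPL38, RPL26, CDKN2A and STAT2 both dox CTBP2 values lay below both untreated ones.

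A few members are uncertain. In all, 149 sites had a peak in at most 8 of the lists, and at NCF1, EIF3C, H4C14 and H2AC13 these were exactly the 8 inducible ones. NCF1 and EIF3C have near-identical copies elsewhere in the genome, and histone genes resemble each other, so reads may be shared between copies. In addition to those duplicated genes, 12 members lie in the region common to X and Y or on Y. Peaks on sequences other than the main chromosomes numbered 226 to 1451 per inducible list and 12 to 52 in each of the others. The part of this in these sites was not tested.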

How the data were processed

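ChIP-seq peak lists of 13 libraries (31 samples in the series) were used. The submitters' processing notes name Bowtie 1.1.1, MACS2 2.1.2, bcl2fastq 1.8.4 and deepTools 3.5.1 and the build hg19, and the paper states that peaks were called against a matched input. Peaks were called per library. Of the deposited columns, the fold enrichment is a ratio of signal to local background made by the authors, and it was the value reported. MACS2 gave each deposited peak a −log10 p and a −log10 q, used for alternatives only. The deposited score is a display value that follows −log10 q and was not used, and the deposited summit offset placed each summit.

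CTBP2 peaks of the untreated libraries were merged, overlap was at least 1 bp, and the nearest TSS was taken from gene starts of protein-coding genes in GENCODE release 44 mapped to GRCh37. Members, gene lists and motifs were chosen with earlier results of these data known. Named sites were those strongest in mean CTBP2 percentile (10), with the 3 highest and lowest CTBP2 and EVI1 ratios, the 3 highest in EVI1, up to 4 per gene list by CTBP2 in untreated replicate 1, all EVI1 and CTBP partners, and 2 on each side of 1 kb; the other blood genes were added after values were seen. A few genes of these lists are not reported here. Library medians are given with no test, since the rule used untreated EVI1 and all CTBP2 calls (the planned exact permutation tests of EVI1 were therefore left out). Shares have Wilson intervals at the 95% level, for counting error only. Alternatives were a stricter q, a larger overlap, other TSS windows, the other summit, dropped sites kept, main chromosomes, equal lists, libraries left out, a replicate block, the nearest EVI1 peak, ranks by p and, added later, all transcript starts. The rule was tested on simulated lists. A recount with bedtools 2.31.1, which joins touching peaks, gave 13577 resistant sites with EVI1 against 13576. The cause of this difference was not traced. Scripts ran in Python 3.11.15 (pandas 2.3.3, numpy 2.4.6, statsmodels 0.14.6, pysam 0.24.0 and matplotlib 3.10.9).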

Additional observations from a re-analysis of the deposited data

How the results depend on the processing

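Peak lists carry no read counts, so depth could not be set equal. The number of sites was 1984 with a −log10 q of at least 5 (1980 genes), and 3269 to 4908 when each inducible library was left out, the highest without CTBP2 dox replicate 2 (genes 3240 to 4868). All other alternatives gave 2679 to 4394 sites, the extremes being lists of equal size and the TSS of every transcript, the last chosen after seeing the data. The share with EVI1 with dox was 99.3% with the stricter q and 99.3% to 99.9% with libraries left out.

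The small EVI1 differences turned sign without EVI1 untreated replicate 2. The log2 change then was 0.020 (range with libraries left out -0.55 to 0.020), the percentile change 2.25 (-10.6 to 2.25), and the difference from sites away from promoters 0.032 (-0.23 to 0.032). The difference from lost promoters ran from 6.94e-05 to 0.16 with libraries left out and was 0.23 with lists of equal size, against 0.099, and the CTBP2 log2 change from -1.31 to -0.66. No other alternative changed the sign of these. With a replicate block the EVI1 changes were -0.25 and -3.36. Deviations of same-numbered EVI1 libraries had r = -0.088 over 3252 sites, so the numbers were not taken to pair the samples.

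Shares in other lists moved with the stricter q to 39.5% (CTBP2, unmodified MUTZ3), 83.8% (MOLM1) and 72.4% (4xPLASS replicate 2). With lists of equal size they were 62.9% (EVI1) and 48.6% (CTBP2) in unmodified MUTZ3, 86.9% in MOLM1 and 82.9% in 4xPLASS replicate 2. With the dropped sites kept they were 66.2%, 53.8%, 87.7%, and 24.9% and 82.1% in 4xPLASS replicates 1 and 2. With libraries left out they ran from 52.3% to 59.1% (EVI1), 36.1% to 44.1% (CTBP2), 82.1% to 85.1% (MOLM1), 8.11% to 9.12% and 70.4% to 78.4% (4xPLASS). The causes were not tested.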
